A study of Mus musculus with 8 samples.

Results

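The 39 Hox genes of the mouse, taken as every symbol made of Hox, a cluster letter from a to d and a paralog number, were described here among the 34536 gene symbols measured in cells of embryoid body cultures. Embryoid bodies are aggregates in which pluripotent stem cells differentiate. All 39 were in the data, 11 in the Hoxa, 10 in the Hoxb, 9 in the Hoxc and 9 in the Hoxd cluster. Stranded mRNA libraries were made from cells sorted by FACS and labelled endocardial (4 libraries, A, C, E and G) or endothelial (4 libraries, B, D, F and H), and the study asks how endocardial signals bear on heart muscle formation. No treatment, genotype or cell line is named for either group, and no marker of the sort and no culture day was stated in the sources used here. No label says that libraries came from separate cultures, so p-values measure the spread between these libraries, which may be technical.

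Hox genes encode homeodomain transcription factors that give cells their position along the body axis. They lie in clusters, and genes of low paralog number are generally switched on earlier and farther forward in the embryo than genes of high number at the other end of the cluster. Retinoic acid, Cdx factors and the removal of Polycomb repression are known to open the clusters, and Hox proteins bind DNA together with TALE partners of the Pbx and Meis families. The second heart field and the blood-forming and vascular mesoderm are among the tissues known to use them.

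Totals ran from 6677667 to 11369363 counts per library, so the level that 3 counts stand for, taken as the limit a count of 0 allows, was between 0.267 and 0.438 CPM, counts scaled to a common library total; such limits cover counting error only. Markers of both labels were present in both groups, but not evenly. Of 25 tested pan-endothelial genes, 21 were called higher in endocardial libraries, beside 1.42% of all tested genes. The median log2 fold change of the 25 was 1.945. The list summed to 1933 to 2302 CPM in endocardial and 554.7 to 993 CPM in endothelial libraries. Kdr made up 454.4 to 791.3 CPM of these sums in endocardial and 129.4 to 332.2 CPM in endothelial libraries. Tek, which was not called, made up 167.8 to 321.9 CPM in endocardial and 49.55 to 334 CPM in endothelial libraries. Of 16 tested endocardial genes, 4 (Nfatc1, Hapln1, Nrg1 and Plxnd1) were called higher in endocardial libraries, beside the same 1.42%. Of 16 tested pluripotency genes, 2 (Tdgf1 and Fgf4) were called lower there, beside 1.16% of all tested genes. Fgf4 passed the filter on low counts only through the endothelial libraries, where it was higher. An unadjusted p below 0.05 was found for 13 of the 16, beside 14.6% of all tested genes, and their median log2 fold change was -2.93 over the 16. The pluripotency list summed to 411.2 to 597.6 CPM in endocardial and 524.3 to 1518 CPM in endothelial libraries, and its highest sum was in library F. Lin28a alone made up 286.6 to 418.6 CPM of these sums in endocardial and 277.3 to 444.1 CPM in endothelial libraries. Dppa3 and Tcl1, both of that list, were at 0 in endocardial libraries A, C and G. Endothelial library B had the highest sum of the mesenchyme and mesoderm list, 26260 CPM, and the other libraries were at 4005 to 9994 CPM. Its blood and hemogenic sum, 2537 CPM, was the highest as well, followed by 1973 CPM in endocardial A. The part of these marker differences in the Hox results below was not tested. In bulk samples such as these, fewer cells of a type and less RNA per cell cannot be told apart.

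Hox transcripts in these cells came mainly from Hoxb, and there from its front, low-numbered end. The 39 genes had 10627 counts over the 8 libraries, of which Hoxb had 67.8%, Hoxd 14.97%, Hoxa 9.97% and Hoxc 7.30%. Paralogs 1 to 5 (15 genes) had 75.2% of the counts and paralogs 6 to 13 (24 genes) had 24.8%. Hoxb carried that share: over Hoxa, Hoxc and Hoxd together, paralogs 1 to 5 made up 55.8% ± 3.93 of the CPM in endocardial and 47.5% ± 5.19 in endothelial libraries (SD, n = 4 each). Paralog 3 alone had 33.3%, while paralogs 11, 12 and 13 had 0.894%, 0.00941% and 0.913%. A count of at least 3 was found for 29, 30, 30 and 28 of the 39 genes in endocardial libraries A, C, E and G, and for 30, 29, 31 and 28 in endothelial libraries B, D, F and H. The groups overlapped in this number.

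**Figure D1:**
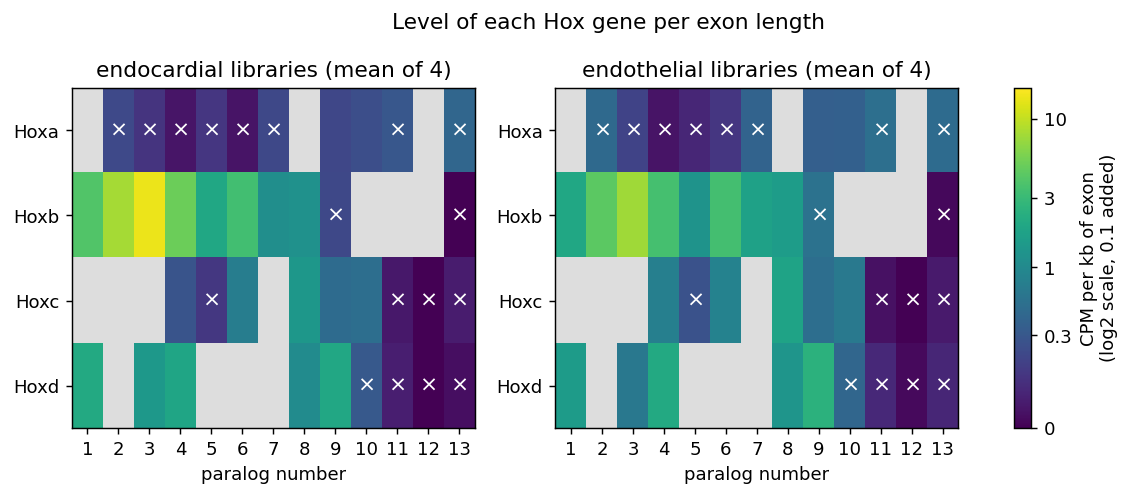
Mean level of each Hox gene in CPM per kb of exon (colour, log2 scale with 0.1 added), by cluster (rows) and paralog number (columns), in endocardial libraries (left) and endothelial libraries (right). Crosses mark genes too low to test and grey cells paralogs that mice lack or that are not shown; the brightest cells in both panels are Hoxb2, Hoxb3 and Hoxb4, and the right-hand columns are dark.

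Per kb of exon, the scale on which genes can be compared, Hoxb3 led all Hox genes with a mean level of 10.7 CPM per kb over the 8 libraries. Hoxb2 and Hoxb4 followed with levels of 6.17 and 4.25 CPM per kb. Hoxb6 and Hoxb1 had levels of 3.37 and 2.94 CPM per kb. Hoxc8, a gene of the thoracic body, was the highest of Hoxc with a level of 1.58 CPM per kb. In Hoxd the highest level was that of Hoxd9, at 2.27 CPM per kb, followed by Hoxd4 at 1.99. This last order turned round when the longest transcript was used as the length. Within each library, Hoxb made up 71.8%, 71.1%, 62.1% and 67.5% of the summed Hox CPM per kb in endocardial A, C, E and G. In endothelial B, D, F and H it made up 62.5%, 56.8%, 45.2% and 55.2%. Endothelial B was just above endocardial E, and the other libraries kept the groups apart.

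Genes that were not detected, or hardly, lay at the high-numbered ends of Hoxb, Hoxc and Hoxd and in the middle of Hoxa. Hoxc12 had 0 counts in every library, which allows at most 0.267 CPM in the deepest library and 0.438 CPM in the shallowest. Hoxa4, Hoxa6, Hoxb13 and Hoxd12 never reached 3 counts in a library, so that 5 genes in all stayed under that limit everywhere. Of the other genes of paralogs 11 to 13, Hoxa13, which shapes digits and the hind end of the gut, had 38 counts over the endocardial and 43 over the endothelial libraries. Hoxa11, a gene of the limb and the female reproductive tract, had 24 and 44 counts in the same order of groups. Per kb of exon, Hoxa13 and Hoxa11 had mean levels of 0.464 and 0.415 CPM per kb, above those of Hoxa9 and Hoxa10. Hoxc11, Hoxc13, Hoxd11 and Hoxd13 each had at most 8 counts over the endocardial and at most 14 over the endothelial libraries. Within Hoxa, Hoxa2 to Hoxa7 were all too low to test, ahead of Hoxa9 and Hoxa10. Per kb of exon, however, Hoxa2 and Hoxa7 were at 0.335 and 0.302 CPM per kb, near Hoxa9 at 0.282 and Hoxa10 at 0.306. Hoxa3, Hoxa4, Hoxa5 and Hoxa6 were lower, at 0.145, 0.0318, 0.0975 and 0.0767 CPM per kb. With the longest transcript as the length, Hoxa9 was above Hoxa2, Hoxa7, Hoxa11 and Hoxa13. Hoxb13 stood apart from its cluster, with 1 count in total, and lies beyond a gap at the far end of Hoxb.

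The comparison of the labelled cell types, made without a block, called no Hox gene. The 21 Hox genes with enough counts to be tested were 3 of Hoxa (among them Hoxa9 and Hoxa10), 8 of Hoxb (Hoxb1 to Hoxb8), 5 of Hoxc (Hoxc4, Hoxc6, Hoxc8, Hoxc9 and Hoxc10) and 5 of Hoxd (Hoxd1, Hoxd3, Hoxd4, Hoxd8 and Hoxd9). By edgeR's quasi-likelihood test at a Benjamini-Hochberg adjusted p below 0.05, 0 of them were higher and 0 lower in endocardial libraries. Over all 13817 tested genes, 2.58% were called, 1.42% as higher and 1.16% as lower. At an unadjusted p below 0.05, 4 Hox genes were on the higher side (Hoxb1, Hoxb2, Hoxb3 and Hoxd3), where 5.65% of all genes were, and 1 on the lower side (Hoxc4), where 8.99% were. The groups did not overlap in CPM for 3 tested Hox genes with endocardial libraries above (Hoxb2, Hoxb3 and Hoxb4; 4.42% of all genes) and for 1 with endocardial libraries below (Hoxc4; 5.33%). Hoxc4 passed the filter on low counts only through the endothelial libraries, where it was higher, so its place on the lower side is no independent support. The log2 fold change, endocardial minus endothelial, was above 0 for 8 of the 21 and for 52.5% of all genes, and its median was -0.15 for the Hox genes and 0.01 for all genes.

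Other tools did call Hox genes. DESeq2 called Hoxb2 higher (adjusted p = 0.0281; 2.4% of all genes called higher). Limma voom with quality weights called Hoxb2 higher (adjusted p = 0.0133; 2.97%) and Hoxc4 lower (adjusted p = 0.0139; 4.09%). Libraries of neighbouring letters, such as A and B, deviated together from their group means, although no label pairs them. With neighbouring letters as a block, edgeR called 4 genes higher, Hoxb1, Hoxb2, Hoxb3 and Hoxd3, with adjusted p-values between 0.00405 and 0.0389, beside 3.65% of all genes. Without endothelial library B, edgeR called Hoxb2 higher (adjusted p = 0.0308, beside 1.64% of all genes). Without endothelial library F, it called Hoxb9 lower (adjusted p = 0.048, beside 0.9%). Hoxb9 was under the 10 counts of the filter in every endocardial library, so it was tested only through the group where it was higher.

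**Figure D2:**
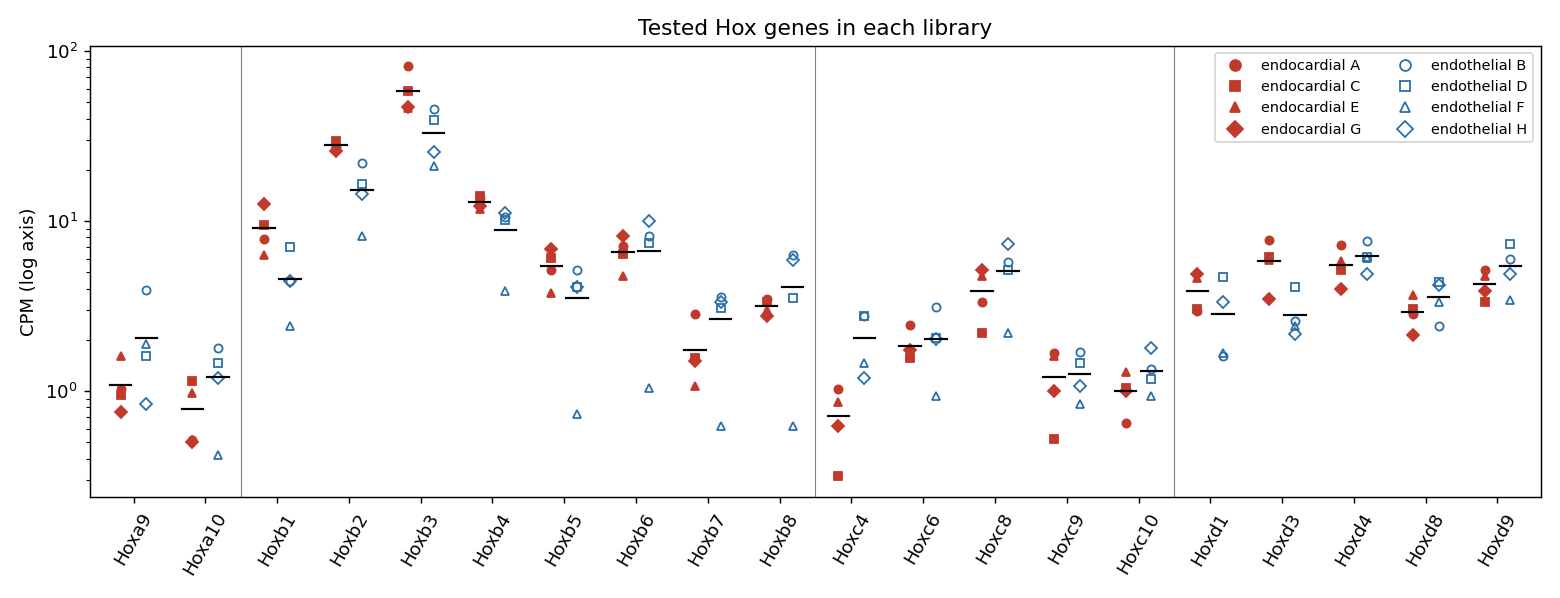
CPM (log axis) of tested Hox genes in each library, endocardial in filled red and endothelial in open blue, with the mean of each group as a black line and grey lines between clusters. The filled points of Hoxb2, Hoxb3 and Hoxb4 lie above all open points, those of Hoxc4 lie below, and the open triangle of library F is the lowest of its group for all 8 Hoxb genes.

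Hoxb spans chr11:96194316-96368256 of GRCm38, the assembly also known as mm10, with Hoxb13 at its low and Hoxb1 at its high coordinates. Promoter sequence in the RefSeq table for GRCm38.p6 was matched for 22 of the 39 Hox genes, with 24 windows of 250 bases before the start. The windows of Hoxb1, Hoxb4 and Hoxb8 were the only 3 matched for Hoxb, so Hoxb2 and Hoxb3 cannot be shown. They come from the front, the middle and the rear of Hoxb, whose values differ in direction below. The window of Hoxd3 is shown because its difference was the largest of the positive ones. Each window shown ends before the first annotated exon base. Capitals mark matches on either strand to a Pbx-Hox site (TGATNNAT), a Meis site (TGACAG) or a retinoic acid receptor half-site (AGGTCA or AGTTCA).
Hoxb1 (chr11:96365508-96365751, plus strand): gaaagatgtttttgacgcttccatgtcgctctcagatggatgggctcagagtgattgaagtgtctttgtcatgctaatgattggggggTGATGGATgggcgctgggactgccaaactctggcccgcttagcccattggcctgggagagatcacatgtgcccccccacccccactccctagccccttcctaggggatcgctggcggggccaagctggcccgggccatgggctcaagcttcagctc
Hoxb4 (chr11:96318017-96318266, plus strand): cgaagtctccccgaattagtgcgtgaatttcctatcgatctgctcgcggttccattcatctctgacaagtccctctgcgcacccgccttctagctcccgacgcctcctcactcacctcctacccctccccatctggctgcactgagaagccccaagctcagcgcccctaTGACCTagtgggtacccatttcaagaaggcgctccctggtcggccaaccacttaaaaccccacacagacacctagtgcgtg
Hoxb8 (chr11:96281655-96281904, plus strand): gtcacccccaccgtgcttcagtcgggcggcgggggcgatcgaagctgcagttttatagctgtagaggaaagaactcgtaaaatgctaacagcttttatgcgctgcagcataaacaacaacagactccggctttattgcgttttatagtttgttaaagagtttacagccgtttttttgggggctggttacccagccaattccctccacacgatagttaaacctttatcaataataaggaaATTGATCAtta
Hoxd3 (chr2:74711743-74711926, plus strand): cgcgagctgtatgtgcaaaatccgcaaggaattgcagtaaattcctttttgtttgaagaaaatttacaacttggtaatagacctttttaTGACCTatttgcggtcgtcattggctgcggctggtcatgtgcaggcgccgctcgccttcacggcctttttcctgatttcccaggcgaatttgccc
Hoxb1 holds a Pbx-Hox match that starts at base 89, upstream of the gene where mouse Hoxb1 is known to be bound by its own product with Pbx. Hoxb8 holds one at base 240, on the other strand. Hoxb4 and Hoxd3 hold a retinoic acid receptor half-site at bases 170 and 90. Pbx-Hox matches were found in 4 of the 24 Hox windows and in 7.68% of 32851 promoter windows of the same length, and TGACAG in 2 of 24 and 15.9%. AGGTCA was in 6 of 24 and 14% and AGTTCA in 2 of 24 and 11.8%. These matches are descriptions of letters, not measured binding.

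Hoxb1 to Hoxb5 all had the larger mean in endocardial libraries, and Hoxb6 to Hoxb8 did not. Without a block and with all 8 libraries edgeR called none of them, and with neighbouring letters as a block it called Hoxb1, Hoxb2 and Hoxb3. Hoxb2, a hindbrain segment gene, had 27.4, 29.7, 28.3 and 25.8 CPM in endocardial libraries A, C, E and G, against 21.9, 16.5, 8.14 and 14.4 CPM in endothelial libraries B, D, F and H. Every endocardial library was above every endothelial one, and the endocardial values were close together. The log2 fold change was 0.87 ± 0.25 (SE), with a p of 0.00556 and an adjusted p of 0.107 by edgeR. Leaving out 1 library at a time gave log2 fold changes between 0.64 and 1.11.

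Hoxb3, which acts in the hindbrain and the pharyngeal arches and had the most counts of any Hox gene, had 81.1, 58.0, 46.5 and 46.5 CPM in endocardial A, C, E and G, against 45.7, 39.3, 20.97 and 25.4 CPM in endothelial B, D, F and H. The groups did not overlap, but endocardial E and G were within 1 CPM of endothelial B. Its log2 fold change was 0.82 ± 0.27 (SE), at an adjusted p of 0.169. Hoxb1, which gives a hindbrain segment its identity and is also active in second heart field progenitors, had 7.88, 9.53, 6.35 and 12.6 CPM in endocardial A, C, E and G, against 4.46, 7.01, 2.40 and 4.43 CPM in endothelial B, D, F and H. Only endothelial D reached into the endocardial range. Its log2 fold change was 0.999 ± 0.338 (SE), at an adjusted p of 0.18.

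Hoxb4, known for expanding blood stem cells in culture, had 13.6, 14.03, 11.8 and 12.2 CPM in endocardial A, C, E and G, against 10.5, 10.1, 3.86 and 11.1 CPM in endothelial B, D, F and H. Library F was far below the other 3 endothelial libraries, which were just under the endocardial range. The log2 fold change was 0.54 ± 0.29 (SE), at an adjusted p of 0.455. Without F it was 0.27. Hoxb5, which in the mouse is known to act on Kdr in vascular precursors, averaged 5.47 ± 1.33 CPM in endocardial and 3.51 ± 1.93 CPM in endothelial libraries (SD, n = 4 each). It had a log2 fold change of 0.63 ± 0.47 (SE), at an adjusted p of 0.623. Hoxb5 was at 0.730 CPM in F, and without F its log2 fold change was 0.27.

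The rear Hoxb genes were also lowest in library F among the endothelial libraries, but their means did not lie above in endocardial libraries. Hoxb6 averaged 6.58 ± 1.42 CPM in endocardial and 6.66 ± 3.88 CPM in endothelial libraries (SD, n = 4 each; log2 fold change -0.01). Hoxb7 had 2.84, 1.57, 1.08 and 1.497 CPM in endocardial A, C, E and G, against 3.57, 3.07, 0.626 and 3.35 CPM in endothelial B, D, F and H. Without F all endothelial libraries were above all endocardial ones, and its log2 fold change was -0.95 (adjusted p = 0.295 by edgeR) against -0.61 with F. Hoxb8, used in culture to hold myeloid progenitors, had 3.49, 3.35, 3.01 and 2.75 CPM in endocardial A, C, E and G, against 6.33, 3.51, 0.626 and 5.86 CPM in endothelial B, D, F and H. It showed the same order, with log2 fold changes of -0.38 with F and -0.75 without it (adjusted p = 0.267). Leaving out 1 library at a time gave values between -0.75 and -0.055 for Hoxb8 and between -0.95 and -0.40 for Hoxb7. For Hoxb6 they lay between -0.39 and 0.24, so F was not the only library that moved these genes. Hoxb9, which was too low to be tested with all 8 libraries, had 0.516, 0.628, 0.430 and 0.499 CPM in endocardial A, C, E and G, against 1.69, 1.46, 0.939 and 1.91 CPM in endothelial B, D, F and H, with no overlap. Hoxb9 passed the filter once F was left out, and its log2 fold change was then -1.70. Its endocardial counts were 4, 6, 4 and 4, so it was tested only through endothelial B, D and H, where it was higher. The filter asks for fewer libraries in a smaller group. Leaving out an endocardial library also raised the number of tested Hox genes, from 21 to 24 or 25.

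The summed level of the Hoxb cluster was 125 ± 18.5 CPM in endocardial and 80.0 ± 29.2 CPM in endothelial libraries (SD, n = 4 each). Library F had the lowest sum, 39.4 CPM, and also the lowest pan-endothelial and the highest pluripotency and anterior patterning sums. Without F the endothelial mean was 93.5 ± 13.7 CPM (SD, n = 3), and the ratio of the means was 1.34 against 1.57 with it.

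In Hoxd the values of the front genes differed in sign, with Hoxd1 and Hoxd3 above 0 and Hoxd4 below, and no gene was called without the block. The cluster (chr2:74668310-74765142) summed to 23.3 ± 3.70 CPM in endocardial and 22.1 ± 3.76 CPM in endothelial libraries (SD, n = 4 each). Hoxd3, which in human endothelial cells is known to switch on integrin genes of sprouting, had 7.75, 6.18, 5.92 and 3.49 CPM in endocardial A, C, E and G, against 2.59, 4.09, 2.40 and 2.15 CPM in endothelial B, D, F and H. Only endocardial G and endothelial D crossed. The log2 fold change was 1.06 ± 0.32 (SE), at an adjusted p of 0.127. Without F its log2 fold change was 0.98. Its neighbour Hoxd4, a gene of the upper neck vertebrae, was at 5.54 ± 1.35 CPM in endocardial and 6.19 ± 1.14 CPM in endothelial libraries (SD, n = 4 each; log2 fold change -0.16). The split of reads between them is uncertain, since 62.3% of the exon bases of Hoxd3 and 52.3% of those of Hoxd4 are shared with each other or with the read-through gene Gm28230. Gm28230 itself had a log2 fold change of -0.36 ± 0.53 (SE), at an adjusted p of 0.833. Antisense genes also overlap exons of Hoxd3, Hoxd4, Hoxb2, Hoxb3 and Hoxb5, and the sources do not say whether the counting used strand.

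The remaining Hoxd genes overlapped between the groups. Hoxd1, known in nociceptive neurons, averaged 3.87 ± 1.01 CPM in endocardial and 2.82 ± 1.47 CPM in endothelial libraries (SD, n = 4 each; log2 fold change 0.48 ± 0.40, SE). Hoxd8 had a log2 fold change of -0.28 ± 0.30 and Hoxd9, a gene of the lumbar region, one of -0.33 ± 0.29 (SE).

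All 5 tested Hoxc genes had log2 fold changes below 0. The cluster (chr15:102921103-103036852) summed to 9.19 ± 2.19 CPM in endocardial and 12.7 ± 4.01 CPM in endothelial libraries (SD, n = 4 each). Hoxc4, the frontmost gene of its cluster, had the lowest log2 fold change of the tested Hox genes. Of the low-numbered genes, Hoxd4 was also below 0, and so were the untested Hoxa2, Hoxa3 and Hoxc5 in a fit without the filter. Hoxc4 had 1.03, 0.314, 0.860 and 0.624 CPM in endocardial A, C, E and G, against 2.76, 2.77, 1.46 and 1.196 CPM in endothelial B, D, F and H. Every endocardial library was below every endothelial one, on 24 counts over the endocardial and 74 over the endothelial libraries. Its counts in endocardial A, C, E and G were 8, 3, 8 and 5, all under the 10 counts of the filter. Hoxc4 was therefore tested only through the endothelial libraries, where it was higher, and its separation and p carry that limit. The log2 fold change was -1.53 ± 0.45 (SE), at an adjusted p of 0.119, and leaving out 1 library at a time gave values between -1.77 and -1.29. Hoxc8 averaged 3.85 ± 1.34 CPM in endocardial and 5.08 ± 2.13 CPM in endothelial libraries (SD, n = 4 each; log2 fold change -0.40). Hoxc10, a gene of the lumbar body, had a log2 fold change of -0.38 ± 0.35 (SE), and Hoxc6 and Hoxc9 were at -0.15 ± 0.38 and -0.08 ± 0.43. Hoxc5 was too low to test, with 13 counts over the endocardial and 32 over the endothelial libraries, and shares 166 exon bases with Hoxc10.

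Hoxa (chr6:52155590-52260880, minus strand) summed to 13.4 ± 2.48 CPM in endocardial and 16.7 ± 4.15 CPM in endothelial libraries (SD, n = 4 each). Hoxa9, known in endothelial commitment and in blood progenitors, had 1.03, 0.942, 1.61 and 0.749 CPM in endocardial A, C, E and G, against 3.92, 1.61, 1.88 and 0.837 CPM in endothelial B, D, F and H. Endothelial B was the highest library, as it was in the mesenchyme and blood sums. The part of those markers in Hoxa9 was not tested. The log2 fold change was -0.94 ± 0.48 (SE), at an adjusted p of 0.429 by edgeR. Hoxa10, expressed in the lumbar body and the uterus, had one of -0.60 ± 0.49 (SE), at an adjusted p of 0.656. Hoxa2, which gives the second pharyngeal arch its identity, was too low to test, but its groups did not overlap. It had 0.129, 0.314, 0.538 and 0.499 CPM in endocardial A, C, E and G, against 0.713, 0.876, 0.730 and 0.957 CPM in endothelial B, D, F and H, on 13 and 29 counts in all. Endocardial A was under the limit of 3 counts and C was at it. The shares of genes without overlap given above cover tested genes only, so they give no background for the untested Hoxa2 and Hoxb9. The other untested Hoxa genes overlapped, among them Hoxa3 at 0.684 ± 0.240 CPM in endocardial and 1.064 ± 0.3025 CPM in endothelial libraries, and Hoxa7 at 0.584 ± 0.239 CPM and 1.155 ± 1.027 CPM in the same order (SD, n = 4 each).

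**Figure D3:**
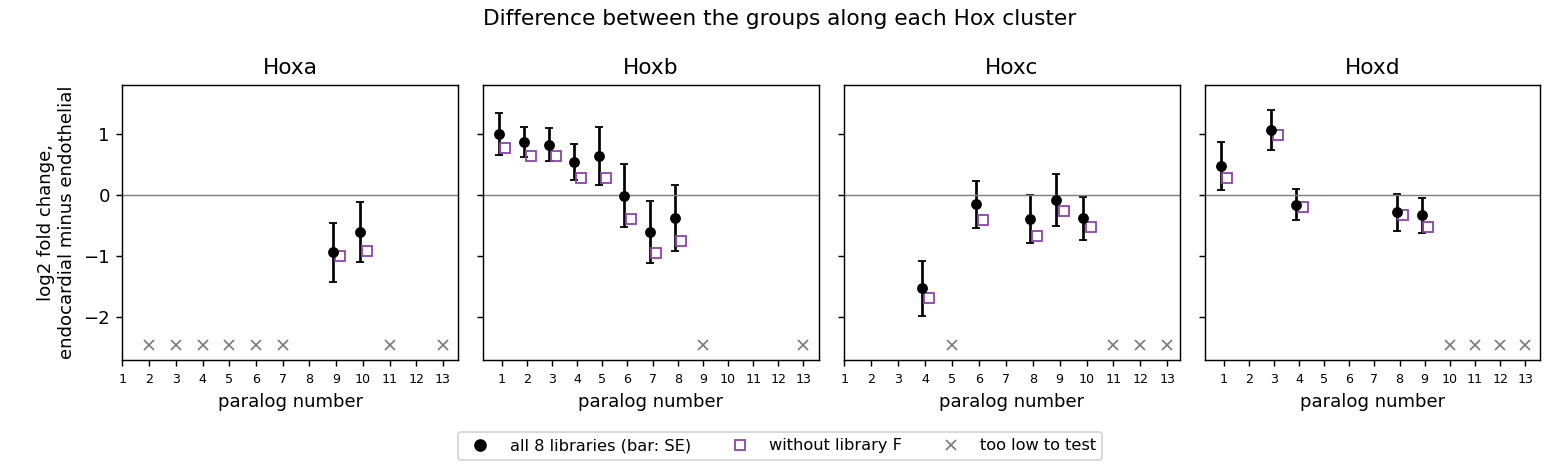
Log2 fold change (endocardial minus endothelial, y axis) against paralog number (x axis) of Hox genes in each cluster: black points with SE bars for all 8 libraries, open squares without endothelial library F, and grey crosses at the bottom for genes too low to test. In Hoxb and Hoxd the points go from above 0 at the left to below 0 at the right; in Hoxc all are below 0, Hoxc4 the farthest.

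Set out along the clusters, the signs of the differences of the tested genes fell mostly into a front and a rear set. Of the 10 tested genes of paralogs 1 to 5, 8 had a log2 fold change above 0, the exceptions being Hoxc4 and Hoxd4, and the median was 0.59. Of the 11 tested genes of paralogs 6 to 10, 0 were above 0, and the median was -0.38, with Hoxb6 and Hoxc9 at -0.01 and -0.08. The untested genes, on few counts, were less clear in a fit without the filter. There Hoxa2, Hoxa3 and Hoxc5 were below 0 (-1.09, -0.59 and -1.10), and Hoxa4 and Hoxa5 above (0.07 and 0.69). Of the untested rear genes in that fit, Hoxc11 and Hoxc13 were above 0 (0.53 and 0.07) and the others below. The division at paralog 5 was chosen after the values were seen, so it has no test. Without the block, edgeR called 0 genes on either side with all 8 libraries, and with it 4 of the first set. Without F the medians were 0.27 and -0.53, with 7 of 10 above 0 in the first set. Without endothelial B the signs changed for the most genes, with 7 of 10 above 0 in the first set and 7 of the 10 then tested below 0 in the second.

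The share of paralogs 1 to 5 in the Hox CPM of a library sets front against rear genes within that library. It uses the same division chosen after the values were seen, so it has no test either. Whether it is tied to the level of Hox transcripts as a whole, which was low in F, was not tested. Paralogs 1 to 5 made up 82.1%, 82.9%, 78.2% and 80.7% of the Hox CPM in endocardial A, C, E and G, against 67.4%, 70.4%, 71.5% and 64.1% in endothelial B, D, F and H. All endocardial libraries were above all endothelial ones, F included, and F was the highest of its group. Per kb of exon the shares were 72.4% to 77.4% in endocardial and 57.8% to 65.8% in endothelial libraries. Within Hoxd alone they were 63.1% to 67.1% in endocardial and 50.3% to 54.8% in endothelial libraries. Within Hoxb they were 89% to 91.3% in endocardial libraries, against 81.6%, 83.3% and 73.8% in endothelial B, D and H but 91.5% in F. Within Hoxc they ran the other way, at 8.77% to 17.9% in endocardial and 12.6% to 27.6% in endothelial libraries, and within Hoxa the groups overlapped widely. The summed level of paralogs 1 to 5 was 160.7, 142.2, 122.2 and 130.1 CPM in endocardial A, C, E and G, against 109.7, 105.9, 54.6 and 87.5 CPM in endothelial B, D, F and H. That of paralogs 6 to 13 was 35.0, 29.3, 34.1 and 31.1 CPM in endocardial A, C, E and G, against 53.0, 44.5, 21.7 and 49.0 CPM in endothelial B, D, F and H. For the rear genes, F was thus below every endocardial library and the other 3 endothelial libraries were above.

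**Figure D4:**
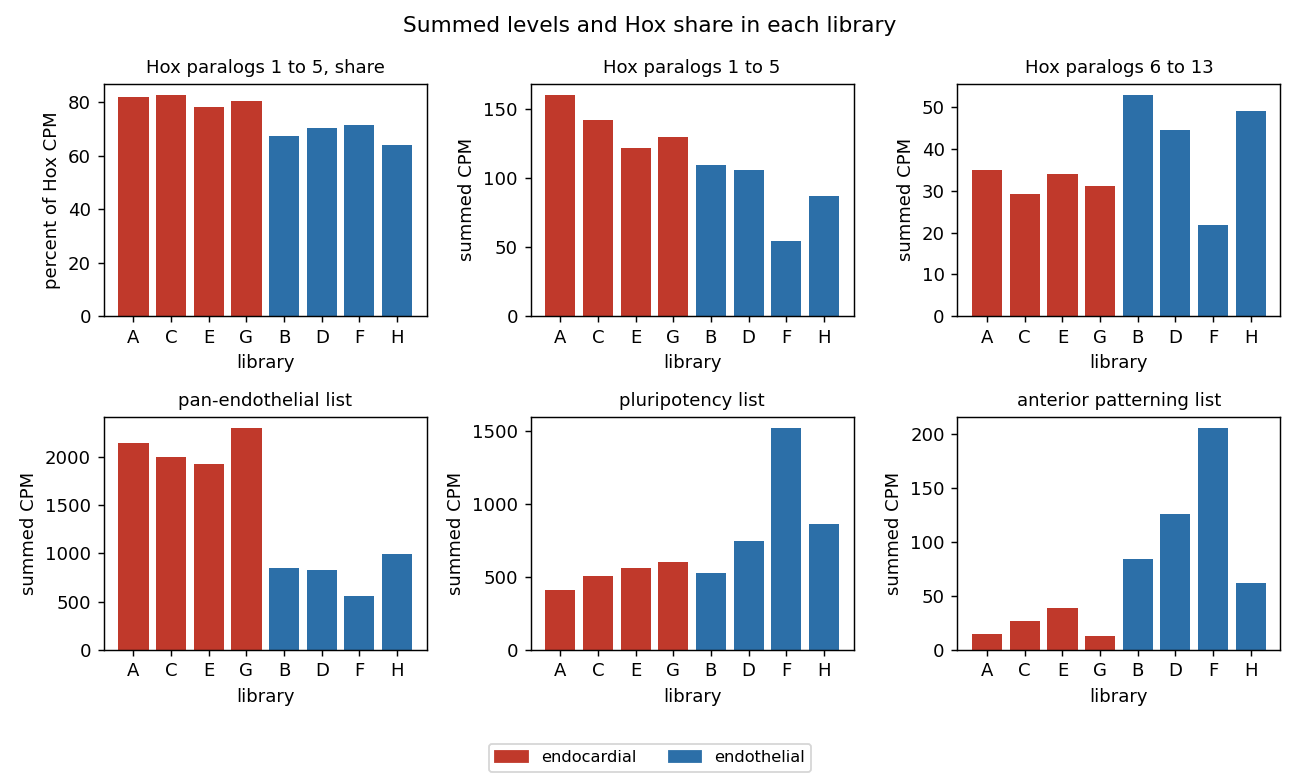
Each library's share of Hox CPM from paralogs 1 to 5 (percent) and its summed CPM of Hox paralogs 1 to 5, Hox paralogs 6 to 13 and 3 gene lists, as bars from 0 (red, endocardial; blue, endothelial; y axes differ). The share separates the groups with F among the endothelial libraries, whereas F is lowest in both Hox sums and the pan-endothelial list and highest in the pluripotency and anterior lists.

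No gene for the proteins that Hox factors bind DNA with was called by edgeR without the block. Of 12 TALE genes tested (Pbx, Meis, Pknox and Tgif families), 0 were called in either direction, with a median log2 fold change of -0.16, and 1 had an unadjusted p below 0.05, beside 14.6% of all tested genes. That was Pbx4, at 1.42, 0.837, 0.968 and 0.374 CPM in endocardial A, C, E and G, against 3.03, 2.77, 7.30 and 1.79 CPM in endothelial B, D, F and H. Its groups did not overlap, and its adjusted p was 0.0746 by edgeR, 0.0166 with the block and 0.0127 by DESeq2. Pbx4 passed the filter on low counts only through the endothelial libraries, where it was higher. Meis2, a homeodomain partner of Hox proteins, had a log2 fold change of -0.28 ± 0.13 (SE), at an adjusted p of 0.342. The summed level of the list was 675.5 to 760.2 CPM in endocardial and 723.3 to 786.9 CPM in endothelial libraries.

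Chromatin regulators of the clusters gave no call by edgeR without the block either. Of 35 Polycomb, Trithorax and CTCF genes, 0 passed, with 7 at an unadjusted p below 0.05 (14.6% of all tested genes in either direction) and a median log2 fold change of -0.11. The smallest p-values were those of Phf19, a Polycomb subunit that reads histone marks, and Cbx7, the Polycomb reader of pluripotent cells. Phf19 had 2.84, 3.98, 4.73 and 3.49 CPM in endocardial A, C, E and G, against 6.60, 7.59, 17.1 and 8.25 CPM in endothelial B, D, F and H. Cbx7 had 12.4, 18.2, 23.2 and 18.2 CPM in endocardial A, C, E and G, against 31.7, 36.8, 122.0 and 39.2 CPM in endothelial B, D, F and H. Neither overlapped between the groups, and F was the highest library for both. Their log2 fold changes were -1.39 ± 0.34 and -1.67 ± 0.44 (SE), with adjusted p-values of 0.0637 and 0.0875 by edgeR, 0.00774 and 0.00703 with the block, and 0.00526 and 0.00155 by DESeq2.

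Of 17 tested retinoic acid genes, 1 was called higher and 1 lower, beside 1.42% and 1.16% of all genes (median log2 fold change -0.09), which is a single gene in each direction. Cyp26a1, which breaks down retinoic acid and is itself induced by it, rose in endocardial libraries, with 30.5, 37.3, 29.1 and 25.0 CPM in A, C, E and G, against 15.3, 20.3, 13.6 and 17.8 CPM in endothelial B, D, F and H. Its log2 fold change was 0.87 ± 0.17 (SE), at an adjusted p of 0.0278, and the call was lost without A, C, E or F, with adjusted p-values of 0.0787, 0.108, 0.0844 and 0.0643. Crabp2, which carries retinoic acid to its nuclear receptors, fell in endocardial libraries, with 6.58, 11.1, 12.7 and 8.36 CPM in A, C, E and G, against 20.5, 37.4, 40.9 and 22.7 CPM in endothelial B, D, F and H. Its log2 fold change was -1.64 ± 0.28 (SE), at an adjusted p of 0.0156, and the call was lost without G (adjusted p = 0.0663) or D (adjusted p = 0.059). Both genes kept the groups apart.

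No other regulator of the rear axis was called by edgeR without the block, while genes of the head were. Of 13 tested regulators of the posterior axis and hindbrain, 0 were called and 3 had an unadjusted p below 0.05, beside the 14.6% of all genes. Nr6a1, a trunk regulator that acts on Hox genes in the mouse, had a log2 fold change of -0.47 ± 0.13 (SE), at an adjusted p of 0.0877 by edgeR, 0.0188 with the block and 0.0151 by DESeq2. Of the Cdx, ParaHox, Evx and Gbx genes, 3 of 13 were tested and 0 called. The most abundant was Cdx2, the upstream activator of trunk Hox genes, at 13.9, 17.8, 19.3 and 20.1 CPM in endocardial A, C, E and G, against 18.7, 28.3, 12.8 and 21.4 CPM in endothelial B, D, F and H. The groups overlapped, and F was the lowest library. Of 10 tested anterior patterning genes, which shape forebrain and eye where Hox genes are silent, 5 fell in endocardial libraries (Lhx2, Lhx5, Six3, Otx1 and Fezf2). Over all genes, 1.16% were called lower. Of the called genes, only Lhx2 reached the 10 counts of the filter in every endocardial library. Lhx5 had 2, 8, 5 and 5 counts in endocardial A, C, E and G. Lhx5, Six3, Otx1 and Fezf2 thus passed the filter through the endothelial libraries, where they were higher, which limits what their calls show. The median log2 fold change of the 10 anterior genes was -2.42. Lhx2 had 2.32, 1.47, 3.23 and 1.62 CPM in endocardial A, C, E and G, against 10.4, 12.4, 18.2 and 7.41 CPM in endothelial B, D, F and H. It was called without any single library (adjusted p = 0.00629 with all). Without A the number called was 3, and without C, D, E or G it was 2; DESeq2 called 8. Of 10 tested neural markers, 4 were called lower in endocardial libraries as well, beside the same 1.16% of all genes. The neural list summed to 196.2 to 309.8 CPM in endocardial and 274.2 to 374.1 CPM in endothelial libraries. The part of neural markers in the anterior genes was not tested.

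**Figure D5:**
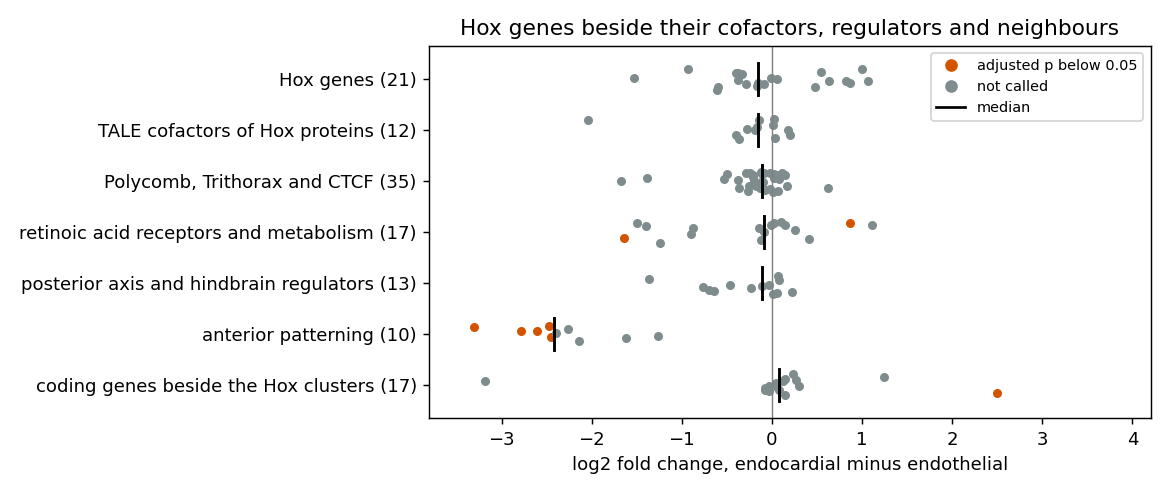
Log2 fold change (x axis, endocardial minus endothelial) of every tested gene in each list (rows, number tested in brackets), with orange for an adjusted p below 0.05 by edgeR, grey for genes not called and a black bar at the median. The anterior patterning genes all lie below -1, while the Hox genes spread from -1.53 to 1.06 around a median of -0.15.

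The neighbourhood of the clusters held a single call. Among 17 tested coding genes within 250000 bases of a cluster, 1 rose in endocardial libraries and 0 fell, beside 1.42% and 1.16% of all genes. The median log2 fold change of the 17 was 0.08. The one was Skap1, a signalling adaptor of T cells that begins 96337 bases beyond the Hoxb1 end of Hoxb. It had 3.74, 8.27, 12.4 and 17.2 CPM in endocardial A, C, E and G, against 1.07, 1.75, 1.25 and 3.35 CPM in endothelial B, D, F and H. Its groups were apart (log2 fold change 2.50 ± 0.51, SE; adjusted p = 0.0336), but the call held in only 2 of the 8 sets that leave out 1 library. Within the clusters, 4 of 46 other annotated genes were in the data, and Gm28230 was the only one of them with enough counts to test.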

How the data were processed

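RNA from sorted mouse cells was sequenced in 8 libraries, 4 a group. Each deposited value is an estimated count for a gene symbol: Salmon, DESeq2 and build mm10 are named per the submitters' processing notes, without versions or settings. All are whole numbers. How strand was counted and which transcripts were used is not given in the sources used here.

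Low genes were dropped by filterByExpr (at least 10 counts, total at least 15), libraries were scaled by TMM, and edgeR 4.0.16 in R 4.3.3 was run as a robust quasi-likelihood F-test over all 13817 genes, endocardial minus endothelial, with Benjamini-Hochberg adjustment. The filter asks for as many libraries at that count as the smaller group has, so a gene can pass through 1 group alone. Each SE was the size of the log2 fold change over the root of F. CPM are per TMM-scaled total. The steps were tested on simulated data. Coordinates, exon lengths and neighbours are from GENCODE M21 of GRCm38, which holds 32697 of the 34536 symbols and all 39 Hox genes. Alternatives were DESeq2 1.42.0, limma 3.58.1 voom, other scalings and filters, a block and leaving out each library.

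The Hox genes and the gene lists were chosen with earlier results of these data known. Statistics are given for each tested Hox gene by its rank in p and its level, and for called and smallest-p members of the other lists. Of 19 noncoding RNA genes of the clusters on a further list, 0 were matched in the data by symbol, and no value is given. The cardiomyocyte list had 0 of 12 tested genes called, mesenchyme and mesoderm 0 of 18, epithelial 2 of 12 (lower in endocardial), blood and hemogenic 2 of 14 and endoderm and yolk sac 1 of 7 (higher in endocardial). Over all tested genes, 1.42% were called higher and 1.16% lower. Results for 1 Hox gene are not reported here; it stays in the counts over all Hox genes.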

Additional observations from a re-analysis of the deposited data

Results flagged for a closer look

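In each of the 42 sets of 4 libraries (21 tested Hox genes in each group), the distance of the most extreme library to its neighbour was compared with the whole range of the group. Chance flags about 1 in 20 such sets, and 2 were found, both in endothelial library F. Hoxb4 was at 3.86 CPM in F, a gap of 0.856 of the group's range, and Hoxb7 was at 0.626 CPM in F, a gap of 0.83, just past the limit used for 4 libraries.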

How the results depend on the processing

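The count of Hox genes called higher in endocardial libraries, 0 by edgeR, was 1 by DESeq2, 1 by limma voom with quality weights and 4 with a block of neighbouring letters; the count called lower was 1 by voom and 0 by the others. Leaving out 1 library at a time gave 0 to 1 higher and 0 to 1 lower. Upper-quartile and relative log expression scaling, a stricter filter or none and fits without robust estimation gave 0 in both directions, and under the scalings the direction of every tested Hox gene was kept in the sets of paralogs 1 to 5 (8 of 10 above 0) and 6 to 10 (11 of 11 below 0). Over all genes, 196 were called higher and 160 lower by edgeR, 330 and 530 by DESeq2, 410 and 565 by voom, 505 and 699 with the block, and 99 to 230 and 35 to 227 with 1 library left out. The mean number of Hox genes detected per library at 3 counts, 29.25 in endocardial and 29.5 in endothelial libraries, was 33.25 and 33.75 at 1 count, 17.75 and 21.75 at 10 counts, and 25 and 28.25 at 0.5 CPM. The anterior patterning genes called lower, 5 by edgeR, numbered 8 by DESeq2, 9 by voom, 9 with the block and 2 to 6 with 1 library left out. The causes were not tested. No label pairs the libraries, so the block rests on neighbouring letters, whose deviations from the group means correlated at 0.569 (A and B), 0.343 (C and D), 0.33 (E and F) and 0.628 (G and H), each library best with its neighbour, as a hint from the data and not the design. The untested Hox genes had few counts per library, and whether depth or low expression sets this was not tested.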
